A study of Mus musculus with 4 samples.

Results

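Strn3 circular RNAs (circRNAs) are the circular transcripts that the deposited files assign to Strn3, the gene of striatin 3. They were chosen by host label and listed back-splice reads: every row of the 4 library files whose list of host genes holds Strn3 was taken, which gave 6 of 1046 circRNAs. The values that chose them are thus the label and the presence of a row, that is at least 2 back-splice reads in a library. The comparison of ischemia/reperfusion (I/R) with sham was no part of it. Strn3 was taken up with its read counts known, so its abundance among hosts is given as a description. The 6 circRNAs held 221 of 7303 back-splice reads (3.03%), and no row named Strn3 together with another host.

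The study sequenced total RNA from heart tissue of C57BL/6 mice. It compared 2 libraries after sham surgery (sham 1 and sham 2) with 2 libraries from a myocardial I/R injury model (I/R 3 and I/R 4) (blocked and then restored coronary flow). The age of the mice, the times of ischemia and reperfusion and any pooling of hearts are not given in the sources used here. Nothing in the labels ties a library to its own mouse, so every p-value reflects the spread among these 4 libraries, and that spread may be technical.

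A circRNA forms when the end of a downstream exon is spliced back to the start of an upstream exon, and reads across this back-splice junction carry the exons in reversed order. The ring has no free ends and is therefore resistant to exonucleases, so circRNAs can outlast the linear transcripts of the same gene. Striatin 3, also known as SG2NA, is a scaffold protein of the striatin family. Striatins act as regulatory subunits of protein phosphatase 2A in the STRIPAK complex, which holds the phosphatase next to kinases of the germinal centre and Hippo families.

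Listed back-splice reads were few, from 1627 in sham 2 to 1982 in I/R 4. In these totals 1 read was worth 0.0505% to 0.0615% of a library's back-splice reads. No read name occurred in more than 1 library, and none was assigned to more than 1 Strn3 circRNA. Of 9 cardiomyocyte host genes 6 had a listed circRNA (among them Ryr2, Slc8a1 and Ttn), with 14.3% and 10.4% of the back-splice reads in the sham libraries and 14.9% and 19.1% in the I/R libraries. The cardiomyocyte shares follow the host labels. They leave out a span on chromosome 14 with 201 reads that has no host label but overlaps listed Myh6 circles. Of 6 endothelial hosts, Pecam1 and Ptprm had listed circRNAs, with 0.317% to 0.505% of the reads. Of 7 fibroblast and 6 leukocyte hosts, 0 had a listed circRNA. Over the 4 libraries only 710 host labels had one, so short gene lists can easily hold none. A listed circRNA reports back-splicing of its host gene and does not measure the expression of that gene. Whether the cardiomyocyte and endothelial shares bear on the Strn3 values was not tested. In bulk tissue, fewer cells of a type and less RNA per cell cannot be told apart.

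The 6 circRNAs lie on the minus strand of chromosome 12 (build mm9), and 5 of them end at position 52762700. To name their exons, the span of each was compared with the distances between exons of the GENCODE M21 Strn3 transcript with 18 exons (build GRCm38), without moving coordinates from either build to the other. Each of the 5 matched exactly 1 of 171 exon pairs, all with the same distance between the positions in both builds. All 5 begin at the first base of exon 2, so position 52762700 is the acceptor site of exon 2. They differ in the exon whose end is joined back to it: exon 7, 4, 15, 13 or 16. Every exon within them is coding throughout.

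The back-splice junctions are shown because they are what the reads identify. Each line gives the last 25 bases of the downstream exon in lower case, then the first 25 bases of exon 2 in capitals, 5′ to 3′, from the GENCODE M21 transcript. The linear junction of exon 1 with exon 2 is added, since it uses the same acceptor.
Exon 7 to exon 2 (chr12:52748981-52762700): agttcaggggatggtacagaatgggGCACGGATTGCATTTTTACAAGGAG
Exon 4 to exon 2 (chr12:52756389-52762700): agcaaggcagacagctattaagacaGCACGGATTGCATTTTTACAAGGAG
Exon 13 to exon 2 (chr12:52728097-52762700): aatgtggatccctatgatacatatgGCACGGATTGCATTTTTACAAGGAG
Exon 15 to exon 2 (chr12:52722767-52762700): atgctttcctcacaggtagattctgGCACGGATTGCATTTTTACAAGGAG
Exon 16 to exon 2 (chr12:52720801-52762700): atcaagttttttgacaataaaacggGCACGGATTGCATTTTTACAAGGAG
Linear exon 1 to exon 2: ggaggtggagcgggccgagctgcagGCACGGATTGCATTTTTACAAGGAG
The capitals are the same in all lines, and the bases before them tell the circles and the linear transcript apart.

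The exon 7 to exon 2 circle is the main one, with 189 of the 221 Strn3 reads (85.5%). It spans 13720 bases of the gene. With all 6 annotated exons between its ends spliced together it would be 703 bases long, with a G and C content of 40.4%. Its length leaves a remainder of 1 on division by 3, so a reading frame would not return to itself after 1 round. The 2 exons that the back-splice joins are shown whole, exon 7 before exon 2, with the 25 bases on each side of the junction in capitals.
Main circle, exon 7 then exon 2 (246 bases): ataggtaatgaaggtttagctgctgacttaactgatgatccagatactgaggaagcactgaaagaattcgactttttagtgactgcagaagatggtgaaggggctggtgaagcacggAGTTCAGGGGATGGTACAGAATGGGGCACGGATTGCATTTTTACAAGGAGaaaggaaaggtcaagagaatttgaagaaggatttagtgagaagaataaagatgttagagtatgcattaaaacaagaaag
The reads cross only the junction, so the exons inside the ring are those of the annotation and were not measured.

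**Figure D1:**
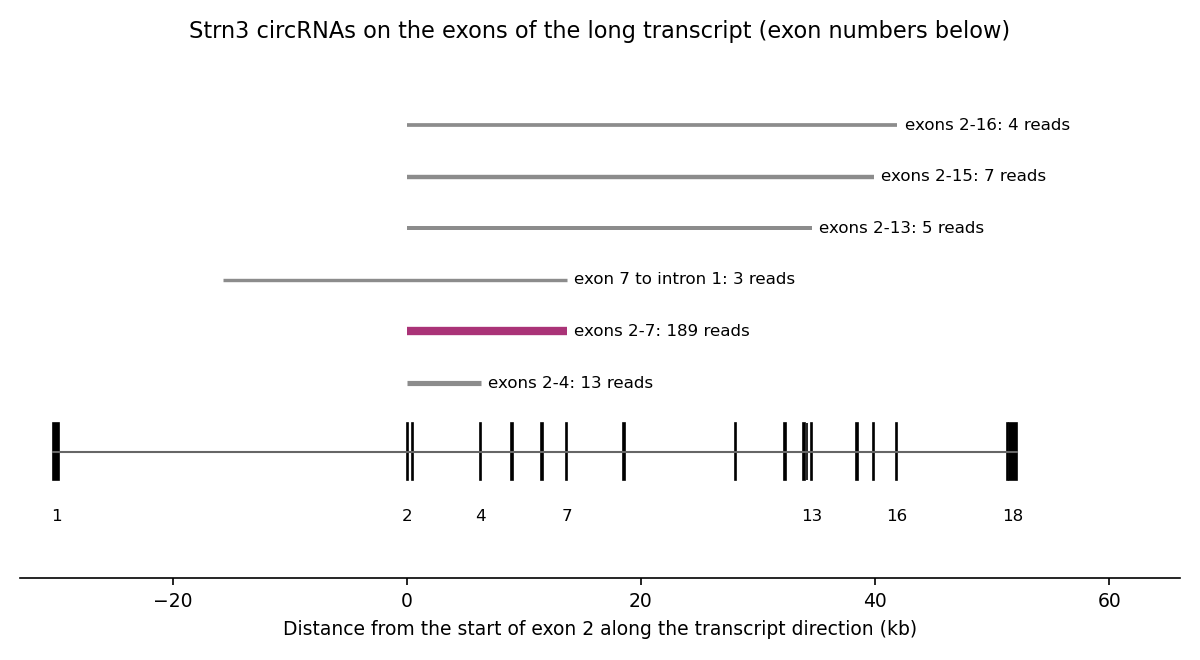
Position of the 6 Strn3 circRNAs on the exons of the 18-exon transcript. The horizontal axis is the distance in kb from the start of exon 2 in the direction of the transcript, black boxes are exons (drawn with a minimum width), and each bar is 1 circRNA, thicker with more reads, labelled with its back-splice reads summed over the 4 libraries. The exon 2 to 7 circle holds 189 reads, and 5 of the 6 bars start at exon 2.

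The introns that flank the circles differ greatly in length. Intron 1, directly upstream of exon 2, is the longest of the 17 introns of this transcript with 29708 bases, against a median of 2441. The intron after exon 7 has 4779 bases there. In the other coding transcript, which has 16 exons and lacks exons 8 and 9, it has 18486 bases. The introns after exons 4, 13, 15 and 16 have 2556, 3766, 1858 and 9367 bases.

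Among the alternative circles, the exon 4 to exon 2 circle is the smallest, with 3 exons and 260 spliced bases. The circles that end in exons 13, 15 and 16 would hold 1435, 1744 and 1852 bases with the exons of the longer transcript. They would hold 1183, 1492 and 1600 bases with those of the shorter one. The sixth circRNA (chr12:52748981-52778410, 29430 bases) is typed as intronic in the files and matched no exon pair. It shares the donor of exon 7 with the main circle, and its other end lies 15710 bases upstream of exon 2, a distance that falls inside intron 1. Of the 6 circRNAs, 5 carry a circBase identifier, from mmu_circ_0000370 to mmu_circ_0000373 and mmu_circ_0004028, and the intronic one carries none. Over all 1046 circRNAs, 67.8% carry one. In all, 218 of the 221 Strn3 reads (98.6%) used the acceptor of exon 2.

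The main circle had 31 back-splice reads in sham 1, 52 in sham 2, 56 in I/R 3 and 50 in I/R 4. These were 1.64% (95% Clopper-Pearson interval 1.12 to 2.32), 3.20% (2.40 to 4.17), 3.10% (2.35 to 4.01) and 2.52% (1.88 to 3.31) of the back-splice reads of each library. Without molecular identifiers, reads are not independent molecules, so such intervals describe counting error and nothing else. Sham 1 was the lowest library and sham 2 the highest, so both I/R values lay between the sham values. By reads it had rank 5 in sham 1, rank 1 in sham 2, rank 2 in I/R 3 and rank 5 in I/R 4, among 391 to 467 listed circRNAs.

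The question of the series was which circRNAs differ between I/R and sham hearts. The main circle held 2.42 ± 1.10% of the sham reads and 2.81 ± 0.41% of the I/R reads (SD, n = 2). With the library scaling of edgeR (TMM factors) the values were 1.74% and 2.77% in sham and 3.10% and 2.76% in I/R, and the groups still overlapped. The log2 fold change was 0.38 with a standard error (SE) of 0.48, and the circle did not pass in edgeR's quasi-likelihood test (adjusted p = 0.920 over 158 circRNAs). The difference was smaller than the spread between the sham libraries. Without sham 1 the fitted log2 fold change was 0.08, without sham 2 it was 0.68, and without I/R 3 it was 0.13.

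Of the 6 Strn3 circRNAs, 2 had enough reads to be tested (a sum of at least 10, and listing in at least 2 libraries), and 0 were called, against 0% of all 158 circRNAs tested. At an unadjusted p under 0.05 there were 9 of the 158 in edgeR (5.70%), none of them from Strn3. DESeq2 and limma-voom with the same filter also made 0 calls, with 6 and 7 circRNAs at that level. As percents of the library the groups overlapped for both tested Strn3 circles, while in 38.6% of the 158 they did not. With TMM factors they overlapped for the main circle but not for the exon 4 to exon 2 circle, and 37.3% of the 158 did not overlap. The median log2 fold change of the 158 was 0.06, and without TMM factors it moved by -0.10. Relative to that median the main circle lay at 0.32 with TMM factors and at 0.26 without them.

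**Figure D2:**
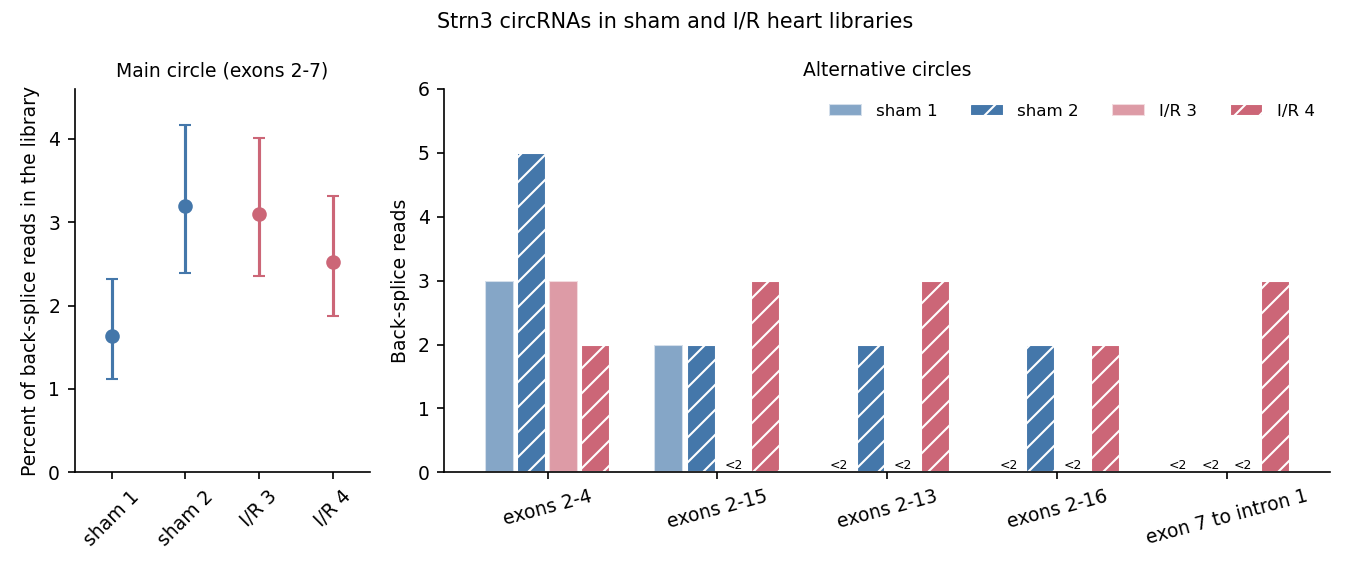
Left, percent of a library's back-splice reads in the main Strn3 circle (points, with 95% Clopper-Pearson intervals). Right, back-splice reads of the 5 alternative circles in each library (bars; "<2" marks a circle that the library does not list). The main circle lies between 1.64% in sham 1 and 3.20% in sham 2, and no alternative circle exceeds 5 reads.

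The exon 4 to exon 2 circle is the only alternative circle listed in all 4 libraries. It had 3 reads in sham 1, 5 in sham 2, 3 in I/R 3 and 2 in I/R 4. That is 0.233 ± 0.105% of the sham reads and 0.134 ± 0.046% of the I/R reads (SD, n = 2). It was fitted at a log2 fold change of -0.63 (SE 0.67) and did not pass (edgeR adjusted p = 0.920). As a percent of a library's reads it lay highest in sham 2 and lowest in I/R 4, with I/R 3 between the sham libraries, so the groups overlapped. With TMM factors the values were 0.168% and 0.266% in sham and 0.166% and 0.110% in I/R, so both I/R values lay below both sham values, I/R 3 just below sham 1. Leaving out 1 library at a time gave fitted values from -1.09 (without I/R 3) to -0.34 (without sham 2). These values rest on 2 to 5 reads per library.

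The remaining 4 circles were too rare to be tested. The exon 15 to exon 2 circle was listed with 2 reads in sham 1, 2 in sham 2 and 3 in I/R 4. The exon 13 to exon 2 circle had 2 reads in sham 2 and 3 in I/R 4, and the exon 16 to exon 2 circle 2 reads in sham 2 and 2 in I/R 4. The intronic circRNA had 3 reads in I/R 4 alone. Since the files list no count below 2, a circle that is not listed had 0 or 1 read. The longer circles were thus listed in 1 library of each group, or in both sham libraries and I/R 4 for exon 15.

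Reads outside the main circle numbered 5 of 36 Strn3 reads in sham 1 and 11 of 63 in sham 2. They numbered 3 of 59 in I/R 3 and 13 of 63 in I/R 4. Their share was 13.9% (95% Clopper-Pearson interval 4.67 to 29.5) in sham 1 and 17.5% (9.05 to 29.1) in sham 2. For I/R 3 it was 5.08% (1.06 to 14.1), and for I/R 4 20.6% (11.5 to 32.7). The I/R libraries held the lowest and the highest share, with 2 circles listed in I/R 3 and all 6 in I/R 4, at nearly the same number of Strn3 reads. The mean share was 15.7 ± 2.53% for sham and 12.9 ± 11.0% for I/R (SD, n = 2). The difference of -2.81 percentage points gave an exact two-sided permutation p of 1, where 2 libraries against 2 cannot go below 0.333. It was -4.80 over the circles listed in at least 2 libraries, which leaves out the intronic one. It turned to 4.96 without I/R 3.

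Summed over all 6 circles, Strn3 had 36 and 63 reads in the sham libraries (1.90% and 3.87% of all) and 59 and 63 reads in the I/R libraries (3.27% and 3.18%). It had rank 2 or 3 among the 306 to 351 host labels of every library, and rank 2 of 710 over the 4 libraries. Both I/R values again lay between the sham values. With TMM factors the values were 2.02% and 3.35% in sham and 3.26% and 3.47% in I/R, and the groups overlapped. The host sum was fitted at a log2 fold change of 0.35 (SE 0.52) and did not pass (edgeR adjusted p = 0.947 over 153 hosts). At this level 0% of all hosts were called in edgeR, with 8 (5.23%) at an unadjusted p under 0.05. The fitted value was 0.86 without sham 2 and -0.05 without sham 1. With the main circle left out, the remaining Strn3 reads were fitted at 0.03.

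**Figure D3:**
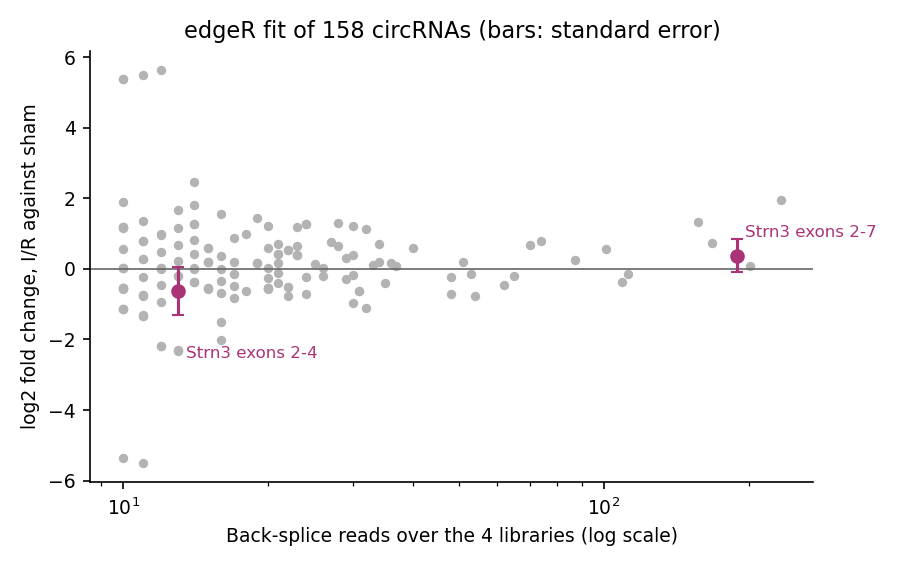
Fitted log2 fold change (I/R against sham, vertical axis) of the 158 tested circRNAs against their back-splice reads over the 4 libraries (log axis). The 2 tested Strn3 circles are coloured, with their standard errors as bars: the main circle is at 0.38 and the exon 4 to exon 2 circle at -0.63, and 0 of the 158 passed.

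The authors' deposited table lists all 6 circles. In the authors' deposited table the main circle has a log2 fold change of 0.35, a p of 0.00225 and an adjusted p of 0.104 over all circRNAs. For the exon 4 to exon 2 circle the authors' deposited table gives -0.60 with an adjusted p of 0.529. The other 4 circles have adjusted p-values from 0.524 to 0.994 in the authors' deposited table, so none of the 6 passed there. A limma-voom fit without a filter, run here after seeing the data, gave the same log2 fold change of 0.35 for the main circle and an adjusted p of 0.104.

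Non-junction reads are reads at the splice sites of a circle that do not cross its back-splice junction. They come from linear Strn3 transcripts or from within a circle. At the main circle there were 161 in sham 1, 178 in sham 2, 165 in I/R 3 and 191 in I/R 4, and the groups overlapped. The means were 169.5 ± 12.0 for sham and 178.0 ± 18.4 for I/R (SD, n = 2). Over the 102 circRNAs listed in all 4 libraries, the main circle's sites were fitted at a log2 fold change of 0.15 (SE 0.18) and did not pass (edgeR adjusted p = 0.604), with the sign turning to -0.05 without TMM factors. Relative to the median of the 102, which moved by -0.20 without TMM factors, the value was 0.19 with them and 0.18 without. In this fit 8.82% of the 102 passed, and 0 of the 2 Strn3 circles did.

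The sites of the exon 4 to exon 2 circle had non-junction counts of 117 and 126 for sham and of 105 and 112 for I/R. Both I/R counts lay below both sham counts before scaling for depth, and in 54.9% of the 102 circRNAs such counts did not overlap between the groups, counting both directions. The fitted log2 fold change was -0.08 (SE 0.19, edgeR adjusted p = 0.788). All exonic circles share the acceptor of exon 2, so their non-junction counts are not independent of each other. The main circle had the most of the listed Strn3 circles in every library. In I/R 4, where all 6 were listed, the counts ran from 96 at exon 16 through 112 at exon 4, 124 at the intronic circRNA, 169 at exon 13 and 178 at exon 15 to 191 at exon 7.

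The circular share sets 2 times the back-splice reads against their sum with the non-junction reads. For the main circle it was 27.8% in sham 1, 36.9% in sham 2, 40.4% in I/R 3 and 34.4% in I/R 4. Sham 1 was the lowest and I/R 3 the highest, and sham 2 lay above I/R 4, so the groups overlapped, while in 47.1% of the 102 circRNAs they did not. The means were 32.3 ± 6.42% for sham and 37.4 ± 4.29% for I/R (SD, n = 2). The difference of 5.06 percentage points gave an exact two-sided permutation p of 0.667, with 0.333 the smallest possible. It was 0.52 without sham 1 and 9.60 without sham 2. The change of back-splice against non-junction reads was fitted at a log2 ratio of 0.23 (SE 0.25) and did not pass (edgeR adjusted p = 0.826). Of all 102 circRNAs 0% passed in edgeR, with 4 (3.92%) at an unadjusted p under 0.05. Without sham 1 the log2 ratio was -0.0064 and without I/R 3 it was 0.0031.

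The circular share of the main circle exceeded the median of the 102 circRNAs listed everywhere, which was 9.42% and 11.1% for sham and 11.7% and 11.0% for I/R. In library order it ranked 16, 9, 10 and 18 of 102. That of the exon 4 to exon 2 circle was 4.88%, 7.35%, 5.41% and 3.45%, below the median in every library, with ranks of 79, 64, 73 and 85. The 2 circles thus share the acceptor of exon 2 and the exons 2 to 4 but lie on opposite sides of the median. The main circle was picked for its back-splice reads, which also enter the circular share, so this contrast is only a description. For the 3 long circles the share was 2.74% to 4.12% wherever they were listed. For the exon 4 to exon 2 circle the change of back-splice against non-junction reads was fitted at a log2 ratio of -0.59 (SE 0.55, edgeR adjusted p = 0.826).

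**Figure D4:**
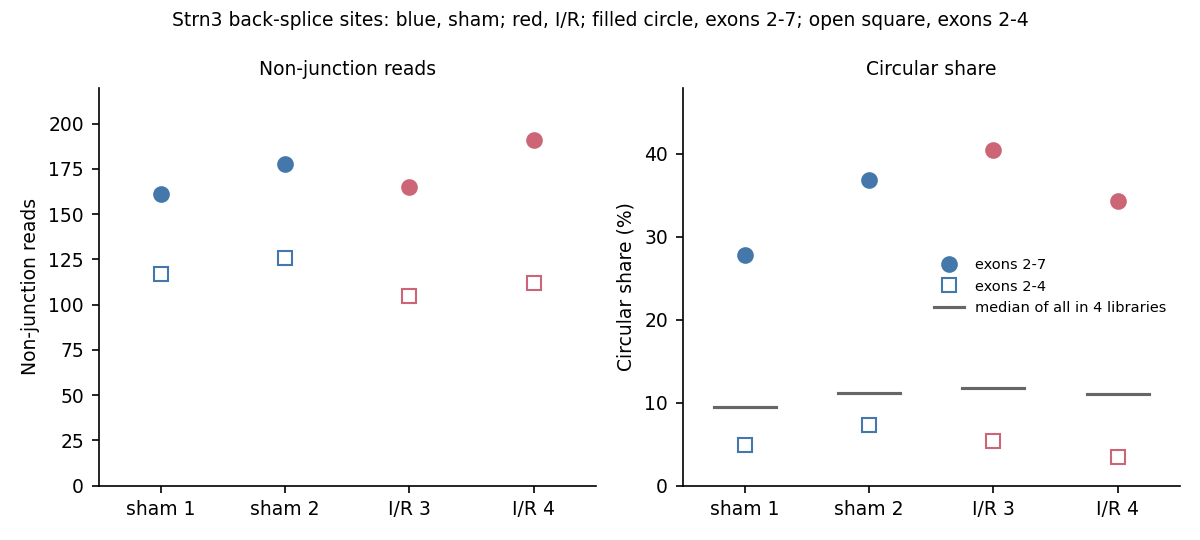
Non-junction reads (left) and circular share in percent (right) at the main Strn3 circle (exons 2 to 7, filled circles) and the exon 4 to exon 2 circle (open squares) in the 4 libraries. Grey lines mark the median circular share of the 102 circRNAs listed in all libraries: the main circle lies above it at 27.8% to 40.4% and the smaller circle below it in each library.

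Strn3 was compared with other hosts of several circles, as a description. In 11 host labels with at least 3 circRNAs and 40 reads, the leading circle held 26.4% to 93.9% of the host's back-splice reads, with a median of 75.5%. Strn3 had rank 3 with 85.5%, after the ubiquitin ligase gene Rnf169 (93.9%) and the sodium-calcium exchanger gene Slc8a1 (92.8%). The titin gene Ttn had 36.2% in its leading circle and the ryanodine receptor gene Ryr2 32.3%. By the share of circles that meet at the host's most used splice site Strn3 had rank 2, with 5 of 6 (83.3%), after the kinase gene Tlk1 with 3 of 3. The median of this share was 50.0%.

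In reads over the 4 libraries the main Strn3 circle had rank 3 of 1046. Next above it, with 201 reads, was a span on chromosome 14 (55571083 to 55598399) that is labelled intergenic and has no host label. By position this span starts within a listed Myh6 circle (55563166 to 55571535) and contains another (55576245 to 55577347). Next below the main Strn3 circle was the circle of Slc8a1 (chromosome 17, 82047149 to 82048978) with 168. The circRNAs with the most similar profile were found by Euclidean distance between the shares of their depth-scaled reads in the 4 libraries, among 18 circRNAs outside Strn3 with at least 40 reads. They were those of Ep400, a chromatin remodelling gene (10, 14, 16 and 11 reads, distance 0.0567), Tlk1, a chromatin-linked kinase gene (18, 22, 28 and 19 reads, distance 0.0687), and the transcription factor gene Nfix (13, 14, 22 and 21 reads, distance 0.0937). The median distance of the 18 was 0.184.

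Gene lists of the striatin family, of STRIPAK partners, and of linked kinases with the Hippo core were searched for hosts. Of 38 genes in 3 lists, 5 had a listed circRNA, Strn3 itself among them. In the striatin family neither Strn nor Strn4 was a host, and of 17 STRIPAK partners, among them Mob4, Slmap, Stk24 and the phosphatase subunit genes Ppp2ca and Ppp2r1a, 0 were. Of 18 genes of linked kinases and the Hippo core, 4 were. The circle of Stk3, a Hippo kinase that STRIPAK opposes, had 2 reads in sham 1 and 3 in sham 2. The tumour suppressor gene Nf2 had 5 reads and the Hippo-responsive transcription factor gene Tead2 3 reads, both in sham 2 alone. The STRIPAK-linked kinase gene Map4k4 had 2 reads in I/R 3 alone. None of these 4 had enough reads to be tested, so the lists give 2 tested circRNAs, both of Strn3, with 1 fitted above 0 and 1 below, against 90 above and 68 below among all 158.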

How the data were processed

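The authors deposited 1 file per library with back-splice counts, non-junction counts and a fraction of junction reads, and a merged matrix of counts, per the file headers. The deposited fraction could be rebuilt as 2J/(2J + N), with J back-splice and N non-junction reads (largest deviation 0.0005). The matrix differed from the library files in 0 cells. The submitters' processing notes name HTSeq 0.9.1, BWA 0.7.5a-r405 and build mm9, but not what each tool did. The sources used here do not name the program that called the circRNAs. A further table by the authors holds log2 fold changes, p-values and score columns, per the file headers.

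Counts were tested with edgeR 4.0.16 (quasi-likelihood, R 4.3.3, TMM factors, Benjamini-Hochberg adjustment at 0.05), with limma 3.58.1 and DESeq2 1.42.0 as alternatives. Back-splice fits took each library's back-splice total as its size and circRNAs or hosts with at least 10 reads and a read in at least 2 libraries. A circRNA that a library does not list was entered as 0 in fits, sums and shares, though it had 0 or 1 read. Non-junction fits used the 102 circRNAs listed in all 4 libraries. The SE was taken from the F statistic and can lie below counting error at few reads. Scripts were tested on simulated data. Values per library were compared with exact permutation tests. All Strn3 circRNAs are named, with list hosts, neighbours by reads and the 3 nearest profiles. All 38 list genes and 28 cell type markers were found in the RefSeq gene table. The members and lists were chosen with earlier results of these data known.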

Additional observations from a re-analysis of the deposited data

How the results depend on the processing

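No paired analysis was possible because the labels do not pair any sham library with an I/R library. Of 44 alternative fitted log2 fold changes of 5 Strn3 results, 40 kept their sign. The permutation tests, which cannot go below 0.333, and the call counts of the gene lists, with mostly 2 tested circRNAs, say nothing about stability. Leaving out 1 library at a time gave log2 fold changes of 0.08 to 0.68 for the main Strn3 circle and -0.05 to 0.86 for the host sum. Non-junction reads ranged from 0.09 to 0.26 and back-splice against non-junction reads from -0.0064 to 0.46. The share outside the main circle differed by -10.6 to 4.96 percentage points, and the circular share by 0.52 to 9.60. These fits, in which a lone library is assumed to vary like the other group, made 0 calls among the 158 circRNAs. The host sum was fitted at -0.048 without sham 1. The non-junction value turned from 0.15 to -0.052 without TMM factors and to -0.052 with the 16 circRNAs of at least 40 reads. Limma-voom without a filter, added after seeing the data, called the Strn3 host sum (log2 fold change 0.32, adjusted p = 8.39e-05 over 710 hosts), while with the filter its adjusted p was 0.847; the cause was not tested. Over the settings of the host sum the adjusted p ran from 8.39e-05 to 0.994. Without a filter edgeR called 3 of 1046 circRNAs and limma-voom 11, none of them from Strn3; the cause was not tested. At 1627 to 1982 back-splice reads per library, 4 of the 6 Strn3 circles were too rare to be tested. The exon 4 to exon 2 circle was not tested with at least 20 reads.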
